A study of Mus musculus with 4 samples.

Results

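The genes described here are 42 interferon response genes, chosen by symbol from a list, of 18193 genes that the arrays could name. The list was chosen with earlier results of these data known, so member shares set beside those of all genes are a description only. Of the 42 listed genes, 40 were measured by a probe set with a single gene symbol. All 40 reached the floor of 5.41 on at least 1 array (the median of the whole table, on the log2 scale), and 38 stood at or above it on all 4. Ifi44 had no named probe set here. Isg15, a ubiquitin-like protein that is attached to other proteins, was read only by a probe set annotated to both Isg15 and Gm9706. That probe set, left out of every count, read 12.12 on the Mical2-labelled array, 12.73 on the Mical3-labelled array, 13.73 on the vector array and 12.91 in untreated cells.

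Interferons are secreted proteins that warn cells of viral infection. They bind receptors linked to JAK kinases, and the STAT2 and IRF9 proteins made in the target cell join in a complex that binds the interferon-stimulated response element, a short motif before many induced genes, while interferon gamma acts largely through a second motif, the gamma-activated site. The induced genes encode sensors of foreign nucleic acid, enzymes that destroy or block viral RNA, GTPases that attack intracellular pathogens, and regulators of the response itself. Endothelial cells respond to both kinds of interferon.

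The study asked which transcripts depend on MICAL2, an enzyme that oxidises actin filaments, and used SVEC4-10 cells, a mouse endothelial line transformed with SV40. It had 4 groups with 1 array each. The first group carried a lentivirus with a short hairpin RNA against Mical2, the second the same backbone with a hairpin against Mical3, a related enzyme, and the third the backbone with no insert, and cells of these 3 groups were selected with blasticidin. The fourth group was untreated and had neither virus nor, as far as the labels say, blasticidin, so the part of transduction and that of selection cannot be told apart. Only 1 hairpin was used for each target. The RNA on an array was a pool of 3 biological replicates, which hides how cultures varied, so the levels carry no error and were not tested. In bulk RNA of this kind, fewer cells with a transcript and less transcript per cell cannot be told apart.

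The targeted genes checked the labels first. On the array labelled Mical2 knock-down the probe sets of Mical2 read 5.53 and 5.53. They read 4.64 and 5.14 with the insert-free vector, and 5.33 and 5.60 in untreated cells. Mical3 read 7.24 on the array labelled Mical3 knock-down, against 7.29 on the vector array and 7.39 in untreated cells. On the other hairpin array, the Mical2 probe sets read 6.0 and 6.08, their highest levels, and Mical3 read 6.83, its lowest. Neither transcript showed the 2-fold reduction that a knock-down label implies. The Mical2 probe sets lay near the floor of 5.41 on all 4 arrays, where a reduction could hardly be seen. They therefore cannot decide whether Mical2 was reduced. Both arrays are named by their labels only, as the Mical2-labelled and the Mical3-labelled array, and every direction below is that of an array so labelled. Array medians over 45101 probe sets lay between 5.40 and 5.44. Of 13 endothelial markers 5 reached the floor on each array. Among those that define endothelial cells, Pecam1, Cdh5 and Tek stayed below it on all 4, while Kdr stood just above it, at 5.72 to 5.95. Ptprc, the common leukocyte gene, read from 3.72 to 3.94, below the floor throughout.

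Across the 4 arrays the interferon response genes moved largely together. The vector array held the highest level of 38 of 40 members, against 34.4% of all 12166 genes at or above the floor, and the Mical2-labelled array held the lowest level of 33, against 27.8%. Both were true of 32 members, or 80.0%, against 14.2% of all genes. The median member level was 8.88 on the Mical2-labelled array, 9.76 on the Mical3-labelled array, 10.70 on the vector array and 9.75 in untreated cells. The middle pair had near-equal medians, but the members did not keep 1 order there: 16 members followed the order vector, Mical3-labelled, untreated, Mical2-labelled from high to low, and 15 members had the Mical3-labelled and untreated arrays the other way round. Every comparison below reuses arrays of the others, so they are not independent of each other.

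**Figure D1:**
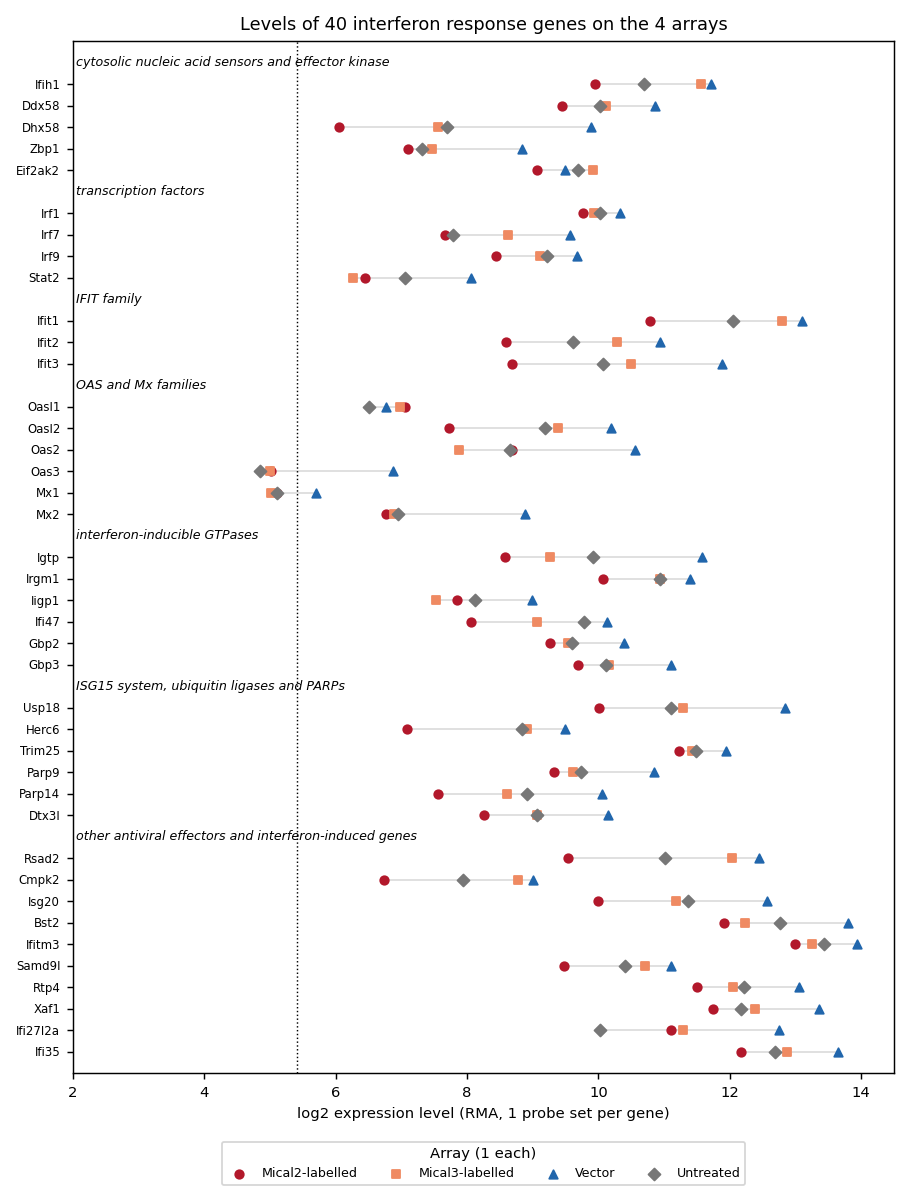
Log2 expression level (x axis) of the 40 measured members, grouped by role, with 1 marker for each of the 4 arrays and no error bars, since each group had 1 array. The dotted line is the floor of 5.41. The blue triangles of the vector array lie at the right end for 38 members and the red circles of the Mical2-labelled array at the left end for 33.

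The windows around the starts of these genes show a sequence feature that many members share. RefSeq gave 37 promoter windows (GRCm38.p6, 250 bases before to 50 bases after a start) for 31 of the 42 listed members. The motif GAAANNGAA, the core of the interferon-stimulated response element, was searched on both strands. It lay in 18 of the 37 windows (48.6%), against 8.56% of all 32851 windows in the table, and 10 windows (27.0%) held it more than once, against 0.624%. The motif TTCNNNGAA, the gamma-activated site, which reads the same on both strands, lay in 8 member windows (21.6%), against 8.30%. In some windows the motifs overlap. A match is a description of these letters only.

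Windows of 5 members are shown: Ifit3, Rsad2 and Igtp, which encodes an interferon-inducible GTPase, were called lower on the Mical2-labelled array and higher on the vector than on the untreated array, Oas3 stood above the floor on the vector array only, and Oasl1 did not follow the other members. Capitals mark matches to either motif, on either strand, and each sequence runs 5′ to 3′ along the strand of its gene in GRCm38.p6.
Ifit3 promoter, chr19:34583279-34583578, plus strand: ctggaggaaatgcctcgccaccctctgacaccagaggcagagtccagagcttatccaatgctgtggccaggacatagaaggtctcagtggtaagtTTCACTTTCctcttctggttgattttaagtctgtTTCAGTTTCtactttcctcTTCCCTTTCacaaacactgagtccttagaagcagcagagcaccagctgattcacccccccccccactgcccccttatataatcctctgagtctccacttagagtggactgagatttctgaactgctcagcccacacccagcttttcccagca
Rsad2 promoter, chr12:26456403-26456702, minus strand: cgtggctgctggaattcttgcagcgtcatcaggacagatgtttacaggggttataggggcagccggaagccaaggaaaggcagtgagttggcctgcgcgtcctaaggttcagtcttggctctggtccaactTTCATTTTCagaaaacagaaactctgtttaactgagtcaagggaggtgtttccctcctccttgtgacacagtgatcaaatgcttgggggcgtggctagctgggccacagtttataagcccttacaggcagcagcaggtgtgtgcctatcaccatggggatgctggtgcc
Igtp promoter, chr11:58199306-58199605, plus strand: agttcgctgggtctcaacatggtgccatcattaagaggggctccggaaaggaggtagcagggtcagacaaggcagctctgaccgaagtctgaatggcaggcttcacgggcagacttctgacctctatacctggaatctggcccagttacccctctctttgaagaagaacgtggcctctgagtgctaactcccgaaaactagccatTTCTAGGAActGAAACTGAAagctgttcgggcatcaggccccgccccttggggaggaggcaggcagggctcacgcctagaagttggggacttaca
Oas3 promoter, chr5:120777610-120777909, minus strand: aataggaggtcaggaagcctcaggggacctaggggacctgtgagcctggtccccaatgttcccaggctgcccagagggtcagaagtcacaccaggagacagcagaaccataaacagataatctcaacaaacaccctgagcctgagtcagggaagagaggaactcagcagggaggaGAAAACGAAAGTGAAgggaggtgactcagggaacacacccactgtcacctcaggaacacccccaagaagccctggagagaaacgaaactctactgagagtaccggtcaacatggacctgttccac
Oasl1 promoter, chr5:114922990-114923289, plus strand: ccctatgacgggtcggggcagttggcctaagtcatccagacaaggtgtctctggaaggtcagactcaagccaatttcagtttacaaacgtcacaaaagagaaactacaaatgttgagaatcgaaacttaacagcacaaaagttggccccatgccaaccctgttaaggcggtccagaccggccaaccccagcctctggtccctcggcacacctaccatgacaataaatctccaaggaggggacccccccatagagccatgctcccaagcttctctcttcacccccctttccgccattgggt

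Ifit3 holds 3 response element cores, the nearest from -102 to -94 relative to the start, and Rsad2 holds 1, from -119 to -111. Igtp has a gamma-activated site from -45 to -37 and a core from -34 to -26. The 2 cores of Oas3 overlap, from -75 to -67 and from -69 to -61. Oasl1 has neither motif in this window. Among windows not shown, Oasl2, Herc6, Cmpk2 and Ifi47, all called lower on the Mical2-labelled array, likewise have neither. Eif2ak2, whose highest level was also not on the vector array, holds 2 cores and 1 gamma-activated site. Set beside the calls described below, of the 10 members with a window that were called lower on the Mical2-labelled array 4 held the response element core (Ifit1, Ifit3, Igtp and Rsad2), against 12 of 19 that were not called. For the vector array against the untreated array it was 8 of 15 called higher and 8 of 14 not called.

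A member is called higher or lower when it differed by at least 2-fold (1 on the log2 scale) and the higher of the compared levels reached the floor. The Mical2-labelled and Mical3-labelled arrays had to differ in 1 direction from both the vector and the untreated array. On the Mical2-labelled array 13 of 40 members (32.5%) were called lower and none higher, where the same rule called 1.75% of all genes lower and 0.977% higher. Here and in the shares that follow, all genes means those whose higher compared level reached the floor, 12072 in this comparison and from 11822 to 12011 in the others. The 13 were Dhx58, Ifit1, Ifit2, Ifit3, Oasl2, Igtp, Ifi47, Usp18, Herc6, Parp14, Rsad2, Cmpk2 and Isg20. The members' median log2 difference was -1.76 for Mical2-labelled minus vector (all genes at or above the floor: -0.04) and -0.67 for Mical2-labelled minus untreated (all genes: -0.03).

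Set against the vector array alone, the Mical2-labelled array had 34 members lower by the rule and none higher (all genes: 6.91% lower, 3.82% higher). The 6 that missed it were Eif2ak2, Irf1, Oasl1, Mx1, Trim25 and Ifitm3. Set against the untreated array alone, the Mical2-labelled array had 13 members lower and 1, Ifi27l2a, higher (all genes: 2.44% lower, 1.44% higher). On the Mical3-labelled array no member was called in either direction against both controls, where the rule called 1.38% of all genes higher and 2.49% lower. Against the vector array alone, 18 members were lower there and none higher (all genes: 7.13% lower, 4.64% higher). Against the untreated array alone, Rsad2 and Ifi27l2a were higher and none was lower (all genes: 1.95% higher, 3.72% lower), and the members' median difference of 0.02 covered values from -0.79 (Stat2) to 1.25 (Ifi27l2a).

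The vector array had 23 of 40 members (57.5%) called higher than the untreated array and none lower, where the rule called 3.26% of all genes higher and 2.57% lower. Their median difference was 1.03, against 0.03 for all genes at or above the floor. Between the hairpin arrays, 14 members (35.0%) were lower on the Mical2-labelled than on the Mical3-labelled array and none higher (all genes: 3.72% lower, 3.81% higher), with a median of -0.68.

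**Figure D2:**
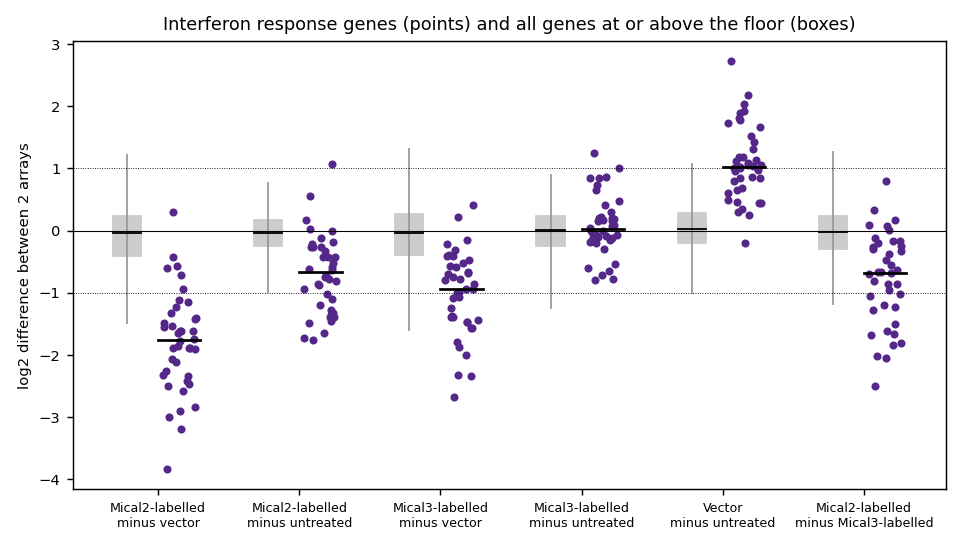
Log2 differences between pairs of arrays (y axis). Each point is 1 of 40 members with the thick bar at their median; the grey box spans the 25th to 75th percentile of all 12166 genes at or above the floor, its line is their median, and the thin line spans the 2.5th to 97.5th percentile; dotted lines mark a 2-fold difference. Members centre on -1.76 for the Mical2-labelled minus vector pair and on 1.03 for vector minus untreated, and spread around 0.02 for Mical3-labelled minus untreated.

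The sensors of foreign nucleic acid were 5. Dhx58 encodes LGP2, which tunes the other RNA sensors, and had the widest difference of any member between the Mical2-labelled and vector arrays. It read 6.05 on the Mical2-labelled array, 7.55 on the Mical3-labelled array, 9.88 on the vector array and 7.70 in untreated cells. The Mical2-labelled array was thus 14.2-fold below the vector array and 3.14-fold below the untreated array, and was alone at the low end. Its further probe sets were dimmer and gave smaller differences from the vector array, -1.01 and -0.99, and from the untreated array they gave -0.33 and 0.20.

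Ifih1 encodes MDA5, a sensor of long double-stranded RNA. It read 9.94 on the Mical2-labelled array, 11.56 on the Mical3-labelled array, 11.71 on the vector array and 10.69 in untreated cells, so the Mical3-labelled array lay close to the vector array and not to the untreated one. Ddx58, which encodes the RNA sensor RIG-I, read 9.44 on the Mical2-labelled array, 10.11 on the Mical3-labelled array, 10.86 on the vector array and 10.02 in untreated cells, with the vector array alone at the top. Zbp1, a sensor of Z-form nucleic acid, read 7.10 on the Mical2-labelled array, 7.47 on the Mical3-labelled array, 8.84 on the vector array and 7.32 in untreated cells. On this probe set of Zbp1 the vector level stood apart from 3 similar ones. The dimmer second probe set, at 6.43 to 7.10, had the vector array only 0.21 above the untreated array. Eif2ak2, the kinase PKR that stops translation when it binds double-stranded RNA, was 1 of the 2 members whose highest level was not on the vector array. It read 9.06 on the Mical2-labelled array, 9.91 on the Mical3-labelled array, 9.49 on the vector array and 9.69 in untreated cells, a range of under 2-fold.

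Among the transcription factors, Irf7, which drives the genes of interferon alpha, read 7.67 on the Mical2-labelled array, 8.63 on the Mical3-labelled array, 9.56 on the vector array and 7.78 in untreated cells. The Mical2-labelled and untreated arrays were near-equal at the bottom, so Irf7 was called higher on the vector array but not lower on the Mical2-labelled one. Stat2 read 6.44 on the Mical2-labelled array, 6.27 on the Mical3-labelled array, 8.06 on the vector array and 7.06 in untreated cells, with the hairpin arrays both at the low end. Irf9, its partner in the response complex, read 8.44 on the Mical2-labelled array, 9.11 on the Mical3-labelled array, 9.67 on the vector array and 9.22 in untreated cells. Irf1, a factor strongly induced by interferon gamma, stayed within 9.76 to 10.33. None of the 4 factors was called lower against both controls on the Mical2-labelled array.

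The Ifit genes encode proteins that bind foreign RNA and block its translation, and all 3 measured members were called lower on the Mical2-labelled array against both controls and lower than on the Mical3-labelled array. Ifit1 read 10.78 on the Mical2-labelled array, 12.79 on the Mical3-labelled array, 13.10 on the vector array and 12.05 in untreated cells. Ifit2 read 8.60 on the Mical2-labelled array, 10.28 on the Mical3-labelled array, 10.94 on the vector array and 9.62 in untreated cells. Ifit3 read 8.69 on the Mical2-labelled array, 10.49 on the Mical3-labelled array, 11.88 on the vector array and 10.07 in untreated cells, a level 9.13-fold lower on the Mical2-labelled than on the vector array. The order of the 4 arrays was the same in all 3 genes, with the untreated array between the 2 hairpin arrays. The Mical2-labelled minus untreated difference of Ifit2, -1.02, was near the threshold, and its call ended with quantile normalization run again (-0.95), with loess centring (-0.94) and with 16 added on the linear scale (-0.99). The 3 genes lie near each other on chromosome 19 of the mouse, in the gene order of GRCm38.p6.

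The OAS enzymes make a second messenger that switches on RNA decay, and the Mx proteins are dynamin-like GTPases that block viruses. This group did not behave as 1. Oasl2 followed the Ifit genes, at 7.73 on the Mical2-labelled array, 9.39 on the Mical3-labelled array, 10.19 on the vector array and 9.18 in untreated cells. Oas2 read 8.68 on the Mical2-labelled array, 7.88 on the Mical3-labelled array, 10.56 on the vector array and 8.66 in untreated cells. Its lowest array was therefore the Mical3-labelled one, and the Mical2-labelled and untreated arrays were within 0.02 of each other. For Oas3 the vector array read 6.87 and was the only one above the floor, the others reading 5.01 on the Mical2-labelled array, 5.00 on the Mical3-labelled array and 4.84 on the untreated array.

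Mx2 read 6.77 on the Mical2-labelled array, 6.88 on the Mical3-labelled array, 8.88 on the vector array and 6.95 in untreated cells. The vector array alone stood out in Mx2 and Oas3. Mx1, whose protein acts in the nucleus in the mouse, was above the floor only on the vector array, at 5.70, and lay between 5.01 and 5.10 elsewhere. Oasl1, which in the mouse restrains translation of Irf7, was the single member with its highest level on the Mical2-labelled array. It read 7.06 on the Mical2-labelled array, 6.98 on the Mical3-labelled array, 6.76 on the vector array and 6.51 in untreated cells, a range of under 2-fold. Oasl2, the next gene on chromosome 5, spanned 2.46 on the log2 scale.

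Of 6 interferon-inducible GTPases, which act on vacuoles that hold pathogens and are known as targets of interferon gamma, all were lower on the Mical2-labelled than on the vector array by the rule, and Igtp and Ifi47 were called lower against both controls. Igtp read 8.58 on the Mical2-labelled array, 9.26 on the Mical3-labelled array, 11.58 on the vector array and 9.91 in untreated cells. Ifi47 read 8.06 on the Mical2-labelled array, 9.07 on the Mical3-labelled array, 10.13 on the vector array and 9.78 in untreated cells. In Ifi47 the untreated array lay near the vector array, whereas in Igtp it was 1.67 below it. None of these 6 genes differed by 2-fold between the Mical3-labelled and untreated arrays. Their differences ran from -0.71 to 0.04, with a median of -0.33 (0.01 for all genes at or above the floor). Those of Irgm1 (-0.01), Gbp2 (-0.06) and Gbp3 (0.04) were smaller than the spread between probe sets given below.

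Iigp1 had its lowest level on the Mical3-labelled array, at 7.52, against 8.99 on the vector array and 8.12 in untreated cells, and it read 7.85 on the Mical2-labelled array. Irgm1 read 10.07 on the Mical2-labelled array, 10.93 on the Mical3-labelled array, 11.40 on the vector array and 10.94 in untreated cells. The guanylate-binding proteins had the vector array alone at the top. Gbp2 read 9.27 on the Mical2-labelled array, 9.53 on the Mical3-labelled array, 10.39 on the vector array and 9.59 in untreated cells, and Gbp3 read 9.69 on the Mical2-labelled array, 10.16 on the Mical3-labelled array, 11.10 on the vector array and 10.12 in untreated cells.

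The enzymes around Isg15 and the PARP proteins held 3 called members. Usp18, which removes Isg15 from proteins and restrains the receptor of type I interferon, read 10.01 on the Mical2-labelled array, 11.28 on the Mical3-labelled array, 12.84 on the vector array and 11.11 in untreated cells. Herc6, the main ligase that attaches Isg15 in the mouse, read 7.08 on the Mical2-labelled array, 8.91 on the Mical3-labelled array, 9.49 on the vector array and 8.83 in untreated cells. The Mical2-labelled array stood alone in Herc6, 3.36-fold below the untreated array, while the other 3 lay within 0.66 of each other, and its further probe sets gave -0.65, -1.17 and -0.96 for Mical2-labelled minus untreated. With its probe sets averaged, Herc6 had -1.66 for Mical2-labelled minus vector and -1.13 for Mical2-labelled minus untreated, against -2.41 and -1.75 for the one used. Parp14, an ADP-ribosyltransferase, read 7.56 on the Mical2-labelled array, 8.61 on the Mical3-labelled array, 10.05 on the vector array and 8.91 in untreated cells.

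Parp9 and Dtx3l encode partners in 1 ubiquitin ligase complex and are neighbours of Parp14 on chromosome 16. Parp9 read 9.32 on the Mical2-labelled array, 9.61 on the Mical3-labelled array, 10.85 on the vector array and 9.73 in untreated cells. Dtx3l read 8.25 on the Mical2-labelled array, 9.06 on the Mical3-labelled array, 10.15 on the vector array and 9.06 in untreated cells. All 3 neighbours were called higher on the vector than on the untreated array, by 1.09 to 1.14 on the log2 scale (0.89 for Parp14 with its probe sets averaged, under the threshold), and only Parp14 was called lower against both controls on the Mical2-labelled array. Trim25, the ligase that activates RIG-I, stayed within 11.23 to 11.94 on the probe set used. Its dimmest probe set read 6.71 on the Mical2-labelled and 7.81 on the Mical3-labelled array, a difference of -1.10. The remaining probe set gave -0.08 for the same pair.

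Rsad2 encodes viperin, an enzyme that makes a chain-terminating nucleotide, and Cmpk2, the next gene on chromosome 12, encodes a nucleotide kinase. Rsad2 read 9.54 on the Mical2-labelled array, 12.03 on the Mical3-labelled array, 12.44 on the vector array and 11.02 in untreated cells. It showed the widest difference of any member between the hairpin arrays, at -2.49, or 5.62-fold, and was called higher on the Mical3-labelled than on the untreated array. Its further probe sets gave -2.52 and -2.32 for the hairpin arrays. Cmpk2 read 6.74 on the Mical2-labelled array, 8.78 on the Mical3-labelled array, 9.00 on the vector array and 7.94 in untreated cells. Its second, dimmer probe set lay between 5.56 and 6.06 and did not show this order, with 5.90 on the Mical2-labelled array and 5.56 on the untreated one.

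Isg20, an exonuclease that degrades viral RNA, read 9.99 on the Mical2-labelled array, 11.18 on the Mical3-labelled array, 12.56 on the vector array and 11.37 in untreated cells. Ifi27l2a, a small membrane protein, had the widest difference of any member between the vector and untreated arrays. It read 11.11 on the Mical2-labelled array, 11.28 on the Mical3-labelled array, 12.75 on the vector array and 10.03 in untreated cells. The vector array was 6.59-fold above the untreated array, and Ifi27l2a was the only member higher by the rule on each of the 3 transduced arrays than on the untreated one.

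Bst2 encodes tetherin, which holds budding virus at the cell surface. It read 11.91 on the Mical2-labelled array, 12.23 on the Mical3-labelled array, 13.80 on the vector array and 12.76 in untreated cells, with both hairpin arrays at the low end. Samd9l, an antiviral factor, read 9.48 on the Mical2-labelled array, 10.71 on the Mical3-labelled array, 11.10 on the vector array and 10.41 in untreated cells, and was lower on the Mical2-labelled than on the Mical3-labelled array by the rule. Rtp4, Xaf1 and Ifi35 were between 11.50 and 13.65 on all arrays and had the vector array at the top and the Mical2-labelled array at the bottom. Ifitm3, which blocks the entry of viruses from endosomes, spanned 0.93 on the log2 scale, the highest level again on the vector array at 13.93.

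The members parted from each other in where the Mical3-labelled array lay, and also in where the untreated array lay. Of the 34 members that spanned at least 2-fold between the Mical2-labelled and vector arrays, the log2 span was taken as a scale. It had 0 at the Mical2-labelled and 100% at the vector array, and the Mical3-labelled array was placed on it. The Mical3-labelled array lay at 91.5% in Ifih1, 90.3% in Cmpk2, 86.6% in Ifit1 and 85.9% in Rsad2, where the untreated array lay at 42.4%, 53.1%, 54.7% and 51.0%. At the other end it lay at 5.21% in Mx2 and beyond the Mical2-labelled array in Stat2 (-10.5%), Iigp1 (-28.9%) and Oas2 (-42.6%). The untreated array was spread as well, from 83.1% in Ifi47 to -65.9% in Ifi27l2a. The further probe set of Stat2 had the hairpin arrays the other way round, at 4.94 on the Mical2-labelled and 5.33 on the Mical3-labelled array, both below the floor. In Oas3 both hairpin arrays lay below the floor, so their order has no meaning. Of the 8 genes whose Mical3-labelled place is given here in percent, 7 were called higher on the vector than on the untreated array. The exception was Iigp1, with a difference of 0.87.

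**Figure D3:**
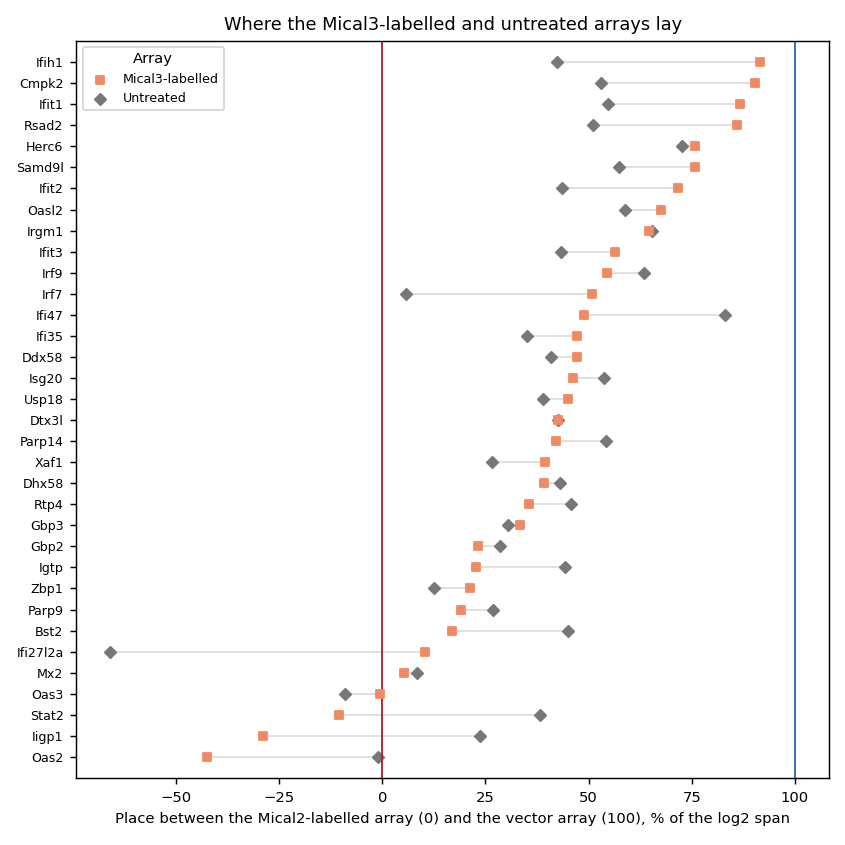
Place of the Mical3-labelled array (orange squares) and the untreated array (grey diamonds) between the Mical2-labelled array (red line at 0) and the vector array (blue line at 100), in percent of the log2 span, for the 34 members that spanned at least 2-fold, sorted by the squares. Squares run from 91.5% in Ifih1 to -42.6% in Oas2.

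Probe sets of the same gene were the only technical repeat that the arrays held. Of the members 16 had more than 1 probe set, which gave 24 further probe sets. For the Mical2-labelled minus vector difference 23 of the 24 had the sign of the probe set used, for vector minus untreated 23, and for Mical2-labelled minus untreated 21. The 3 that differed in the last of these belonged to the called members Dhx58, Cmpk2 and Parp14, and were dim, at 4.76 to 5.95 for Dhx58, 5.56 to 6.06 for Cmpk2 and 4.26 to 4.90 for Parp14. With the probe sets of a gene averaged, the Mical2-labelled minus untreated difference was -0.59 for Dhx58, -0.43 for Cmpk2 and -0.66 for Parp14, so these calls ended. Averaging likewise ended the vector minus untreated calls of Zbp1 (0.86), Parp14 (0.89), Cmpk2 (0.78) and Xaf1 (0.85), and the calls of Dhx58 (-0.60), Parp14 (-0.82) and Cmpk2 (-0.95) between the hairpin arrays. For Mical3-labelled minus untreated, where differences were small, 13 of 24 had the same sign. The 2 brightest probe sets were compared over 5198 genes with at least 2 whose mean level reached the floor. The SD of their disagreement, divided by the square root of 2 to stand for 1 probe set, was 0.33 for Mical2-labelled minus vector and 0.24 for Mical2-labelled minus untreated. It was 0.28 for Mical3-labelled minus untreated and 0.26 for vector minus untreated. This spread leaves out that between cultures.

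**Figure D4:**
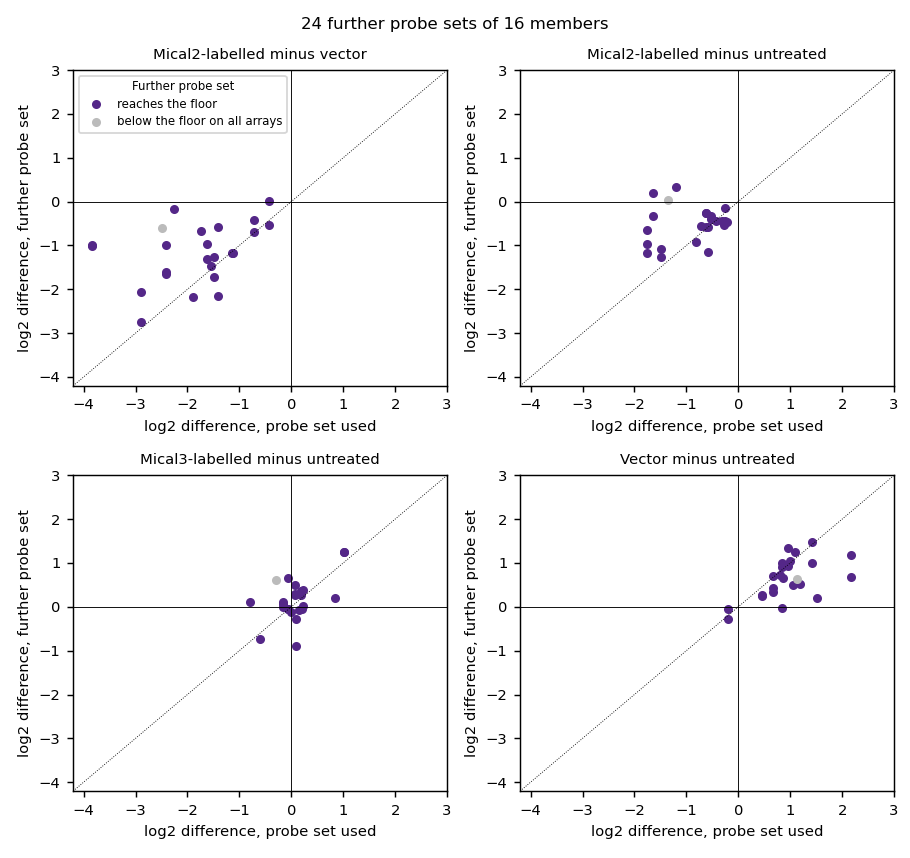
Log2 difference of each of 24 further probe sets (y axis) against that of the probe set used for the same member (x axis) in 4 pairs of arrays, with the dotted line at equality. Purple points reached the floor on some array and grey points did not. In the Mical2-labelled minus vector and vector minus untreated panels 23 of 24 points share the sign of the probe set used.

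The rest of the interferon pathway was read from a list of 94 other genes, of which 76 were measured. For a hairpin array against both controls, vector against untreated and between hairpin arrays, the rule called from 0.977% to 3.81% of all genes in a direction. In short lists, 1 call or none therefore says little about the list. Ligands were at or below the floor, with 1 of 4 reaching it. Ifnb1, interferon beta, read 4.68 on the Mical2-labelled array, 4.83 on the Mical3-labelled array, 5.69 on the vector array and 4.72 in untreated cells, just above the floor on the vector array alone. It was lower by the rule on the Mical2-labelled than on the vector array (-1.01), and vector minus untreated was 0.97, just under the threshold. None of 9 receptors and JAK-STAT transducers was called for a hairpin array against both controls, for vector against untreated or between the hairpin arrays. Ifnar1, a chain of the type I receptor, stayed within 8.28 to 8.54 and Ifnar2, the other chain, within 10.47 to 10.92. Of the receptor for interferon gamma, Ifngr1 stayed within 8.58 to 9.01 and Ifngr2 within 9.68 to 10.26. The kinase Jak1 stayed within 9.70 to 9.93.

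Tyk2, the kinase bound to Ifnar1, read 7.42 on the Mical2-labelled array, 7.21 on the Mical3-labelled array, 8.33 on the vector array and 7.72 in untreated cells, its highest level again on the vector array. Against the vector array alone it was lower by the rule on the Mical3-labelled array, at -1.12. Irf3, the factor that starts interferon transcription, read 8.75 on the Mical2-labelled array, 8.76 on the Mical3-labelled array, 9.66 on the vector array and 9.31 in untreated cells. Of 16 upstream genes, Tlr3, a receptor for double-stranded RNA, was called lower on the Mical2-labelled array and higher on the vector array than on the untreated one. It read 6.39 on the Mical2-labelled array, 7.21 on the Mical3-labelled array, 8.65 on the vector array and 7.50 in untreated cells. Tlr4, the receptor for bacterial lipopolysaccharide, was called higher on the vector than on the untreated array, at 8.79 against 7.55.

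Of 10 negative regulators, Nlrc5, also known as an activator of antigen presentation genes, was called in 3 comparisons. It read 5.76 on the Mical2-labelled array, 4.34 on the Mical3-labelled array, 7.89 on the vector array and 5.65 in untreated cells. Its lowest level was on the Mical3-labelled array. Of 37 other induced genes outside the members, 11 were called higher on the vector than on the untreated array and none lower (all genes: 3.26% higher, 2.57% lower). Their median was 0.63 against 1.03 for the members. The 11 were Tap1, Psmb9, Trim21, Trim30a, Tor3a, Gbp7, Irgm2, Ifitm1, Helz2, Ddx60 and Slfn2. Called lower on the Mical2-labelled array against both controls (all genes: 1.75%) were Cxcl10, Gbp7 and Ddx60, the last at 5.38 on that array, 8.72 on the vector array and 7.04 in untreated cells.

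Some induced genes departed from the members on the Mical3-labelled array. Psmb8, a subunit of the immunoproteasome, was called higher there, at 7.14, against 5.41 on the vector array and 5.96 in untreated cells. Ifit1bl1, a relative of Ifit1, was called higher as well, at 7.76, against 6.58 on the vector array and 6.76 in untreated cells. Gbp6 was called lower, at 6.04, against 8.00 on the vector array and 7.66 in untreated cells. Between the hairpin arrays, Cxcl10, Psmb8, Lgals9, Ddx60, Slfn2, Ifit1bl1 and Znfx1 were lower on the Mical2-labelled array, and Nlrc5, Gbp6 and Phf11d were higher.

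**Figure D5:**
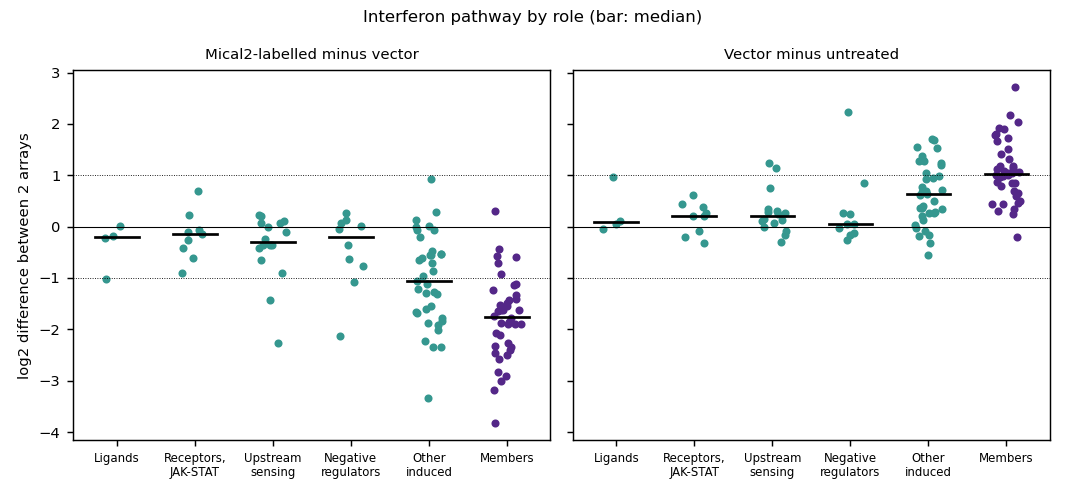
Log2 differences of interferon pathway genes by role (4 ligands, 9 receptors and JAK-STAT transducers, 16 upstream genes, 10 negative regulators, 37 other induced genes and the 40 members), for Mical2-labelled minus vector (left) and vector minus untreated (right). Each point is a gene, bars are medians and dotted lines mark 2-fold. Medians of vector minus untreated are 0.08 for ligands, 0.21 for receptors and transducers, 0.63 for other induced genes and 1.03 for members.

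Cell type markers moved between the same arrays. Of 7 fibroblast and mural markers, 5 (Col1a1, Col1a2, Pdgfra, Pdgfrb and Dcn) were called lower on the vector than on the untreated array (all genes: 2.57%), opposite in direction to the interferon genes. Of these, Col1a2 and Pdgfrb were also called lower on the Mical3-labelled array against both controls (all genes: 2.49%). Col1a2 read 6.19 there against 14.49 in untreated cells, and Pdgfrb 3.55 against 10.28. Dcn instead had its highest level there, at 12.79, against 10.52 on the vector array and 12.36 in untreated cells. The log2 of the summed linear level of the 7 markers was 14.83 on the Mical2-labelled array, 13.26 on the Mical3-labelled array, 12.78 on the vector array and 15.25 in untreated cells. On the Mical3-labelled array this sum came mostly from Dcn. Of 8 leukocyte markers 1 was called, Cd68, a lysosomal protein, at 8.00 on the vector array against 5.93 on the untreated array (all genes: 3.26% higher). A single call in a list this short says little. The leukocyte markers had summed levels of 8.51 on the Mical2-labelled array, 8.59 on the Mical3-labelled array, 9.01 on the vector array and 8.28 in untreated cells. Of 4 lymphatic endothelial markers, Flt4, a receptor for vascular growth factors, was called lower on both hairpin arrays (all genes: 1.75% on the Mical2-labelled and 2.49% on the Mical3-labelled array). It read 7.66 on the Mical2-labelled array, 7.55 on the Mical3-labelled array, 8.90 on the vector array and 9.18 in untreated cells. Pdpn, a membrane glycoprotein, was not called, at 11.67 on the Mical2-labelled array, 12.47 on the Mical3-labelled array, 12.50 on the vector array and 12.29 in untreated cells, and Lyve1 and Prox1 stayed below the floor. The summed level of the lymphatic markers, which came mostly from Pdpn, was 11.77 on the Mical2-labelled array, 12.53 on the Mical3-labelled array, 12.62 on the vector array and 12.46 in untreated cells. The defining leukocyte gene Ptprc stayed below the floor. The summed level of 13 endothelial markers lay between 9.69 and 9.71 on all 4 arrays. Only 5 of the 13 reached the floor, with Flt1, Eng and Egfl7 the brightest, so the sum says little about the dimmer ones. The part of these cell type markers in the interferon differences was not tested.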

How the data were processed

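SVEC4-10 RNA was hybridised to 4 arrays, each a pool of 3 biological replicates, per the labels. The deposited values are log2 levels per probe set that the authors computed with RMA, a method of background correction, quantile normalization and probe summary, per the submitters' processing notes. Its version is not given in the sources used here. No scaling was added.

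Of 45101 probe sets, 34945 had 1 symbol in the platform annotation, 932 several, 9160 none, and 64 were controls. Symbols were updated by Entrez identifier against RefSeq (GRCm38.p6), which matched 34741. The probe set with the highest mean stood for each of 18193 genes. RMA compresses differences near background, so those of dim genes are understated, and the number of arrays limits the precision.

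Since each group has a single array, no test was run, and genes were called by a 2-fold size rule above a floor of 5.41 (the table median). The rule was run on simulated levels with changes well above 2-fold, so that run says nothing about calls near the threshold. Members and lists were chosen with earlier results of these data known. All members were eligible to be named, with fixed ligands, receptors and transducers and any listed gene that passed the rule. Gene order and promoter windows came from RefSeq. Python 3.11.15, numpy 2.4.6, pandas 2.3.3, statsmodels 0.14.6 and matplotlib 3.10.9 were used.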

Additional observations from a re-analysis of the deposited data

How the results depend on the processing

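The alternatives were another choice of probe set (averaging all of them, taking the most variable, or dropping those marked _x_at or _s_at), a fold of 1.5 or 3, no floor or one at the 75th percentile, 1 control in place of both, quantile normalization run again, centring by loess and 16 added on the linear scale. With the threshold and controls kept, the members called lower on the Mical2-labelled array numbered 10 to 14 (13 as reported), those higher on the vector than on the untreated array 20 to 25 (23), and those lower on the Mical2-labelled than on the Mical3-labelled array 11 to 15 (14). A fold of 1.5 gave 21 members lower on the Mical2-labelled array (all genes: 5.57%) and 5 lower on the Mical3-labelled array (all genes: 6.53%). It gave 23 lower and 1 higher on the Mical2-labelled than on the Mical3-labelled array (all genes: 11.1% and 8.1%). At a fold of 3 there were 3 members lower on the Mical2-labelled array (all genes: 0.538%) and 8 lower there than on the Mical3-labelled array (all genes: 1.32%). On the vector array 9 were higher than on the untreated array (all genes: 0.641%). The vector array as the only control gave 34 lower on the Mical2-labelled and 18 lower on the Mical3-labelled array (all genes: 6.91% and 7.13%). The untreated array as the only control gave 1 and 2 higher (all genes: 1.44% and 1.95%). Fewer or more genes pass these rules by their construction. Medians over the members ranged from -1.82 to -1.58 for Mical2-labelled minus vector, from -0.73 to -0.54 for Mical2-labelled minus untreated, and from 1.0 to 1.07 for vector minus untreated, while Mical3-labelled minus untreated ran from -0.01 to 0.04. Over all genes, Mical2-labelled lower calls numbered 211 as reported and 132 with averaged probe sets, and Mical3-labelled lower calls 299 and 191. With the floor at the 75th percentile, Mical2-labelled calls were 68 higher and 138 lower (118 and 211 as reported), vector calls over untreated 251 higher and 195 lower (386 and 305), and Mical2-labelled calls over Mical3-labelled 275 higher (454). That floor left fewer genes, 7693 against 12072 for the Mical2-labelled calls, and the shares moved little. They were 1.79% lower against 1.75% there, and 3.32% higher against 3.26% for vector over untreated. At a fold of 1.5 the Mical2-labelled calls were 307 higher and 672 lower, and at 3 they were 47 and 65. These folds gave 539 higher and 784 lower, then 42 and 121, for Mical3-labelled calls (166 and 299 as reported), 1222 and 862, then 76 and 119, for vector calls over untreated, and 966 and 1321, then 218 and 157, for Mical2-labelled calls over Mical3-labelled (454 and 444). Set against the vector array alone, 458 were higher and 828 lower on the Mical2-labelled array, and 553 and 849 on the Mical3-labelled array. The same 3 scalings also ended the vector minus untreated call of Stat2 (0.92 to 0.98) and the calls of Ifi47 (-0.97 to -0.92) and Parp14 (-0.99 to -0.98) between the hairpin arrays, loess and the added 16 ended that of Oasl2 over untreated on the vector array (0.99), and loess that of Cmpk2 (0.99). Signal near background limits Mx1 and Oas3. No paired analysis was possible because each group has 1 array and no test was run.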
